A study of Mus musculus with 6 samples.

Results

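The HoxA cluster genes described here were the 10 genes *Hoxa2*, *Hoxa3*, *Hoxa4*, *Hoxa5*, *Hoxa6*, *Hoxa7*, *Hoxa9*, *Hoxa10*, *Hoxa11* and *Hoxa13*, taken by symbol from the 32285 genes of the deposited count matrices. The cells came from autonomic ganglia of mouse pups of both sexes at postnatal day 5. All groups carried the same Cre transgene, on a bacterial artificial chromosome, and the red reporter tdTomato that it switched on at the Rosa locus. No sort on the reporter was made, and each library was prepared from the whole ganglion. The 6 libraries were the stellate ganglion, the lumbar chain and the coeliac-superior mesenteric complex, called coeliac (all sympathetic), the sphenopalatine ganglion (parasympathetic) and 2 libraries of the pelvic ganglion, pelvic_1 and pelvic_2. The stellate, sphenopalatine and pelvic_1 libraries belonged to a first round (kit v2) and the coeliac, lumbar and pelvic_2 libraries to a second round (kit v3).

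*Hox* genes encode homeodomain transcription factors that lie side by side in clusters and are read out along the body axis in the order of their position in the cluster, from front (low numbers) to back (high numbers). Cells keep much of this code after the embryo is patterned, so that a neuron, a glial cell and a fibroblast of the same level can each carry a record of their axial origin. In the autonomic nervous system the neurons and glia of the ganglia descend from the neural crest, whereas fibroblasts and vessels of the trunk are largely of mesodermal origin. Hox proteins bind DNA together with partner homeodomain proteins of the Pbx, Meis and Pknox (Prep) families.

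The 10 genes occupied chr6:52162417-52260880 (GRCm38, GENCODE M21), 98464 bases, all on the minus strand, with *Hoxa2* at one end and *Hoxa13* at the other. No exon of a member was shared with another measured gene on the same strand. Measured antisense genes overlapped *Hoxa3*, *Hoxa4*, *Hoxa7* and *Hoxa11*, and whether reads were counted by strand was not given in the sources used here, so these 4 levels may hold reads of their antisense neighbours.

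Of 21442 retained cells, 20170 fell into 6 classes, namely neurons, glia, fibroblasts, endothelial cells, mural cells (the contractile cells around vessels) and macrophages. The other 1272 cells were left out of the classes. They included unnamed clusters of 97 coeliac and 168 lumbar cells led by the glial gene *Fabp7*. A pelvic_1 cluster of 56 cells below the neuron threshold, led by the P4 marker *Aldh1a2*, was also left out. Between 9 and 10 of the 10 markers fixed for each class were higher in that class than in any other class of the same library, the exception in glia being *Apoe*, which was higher in another class. In neurons *Th*, the first enzyme of noradrenaline synthesis, was between 451 and 995 counts per 1000000 (CPM) in the 3 sympathetic libraries against 1.86 in the sphenopalatine. Levels are CPM of the unique molecular identifiers (UMIs, 1 per captured molecule) summed over the cells of a class in a library, with exact 95% Poisson intervals that cover counting error only. They were not divided by gene length, since each UMI stands for 1 captured 3' end. The sums held from 17981802 UMIs (coeliac) to 79172861 UMIs (stellate) in neurons, but only from 243635 (lumbar) to 1559217 (pelvic_1) in mural cells. With 1 library for every ganglion other than the pelvic, ganglia could not be tested against each other, and differences between ganglia are given as sizes with counting intervals. At most 49 cell barcodes were shared by any pair of libraries.

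Summed over neurons, glia, fibroblasts, endothelial cells and mural cells, the 10 genes gave 1 UMI in the sphenopalatine library, 557 in the stellate, 774 in the coeliac, 1949 in the lumbar, 6664 in pelvic_1 and 7759 in pelvic_2. As CPM of the same cells these totals were 0.0109, 5.76, 22.6, 22.7, 119 and 133. They also depend on the mix of classes. Neurons held 17981802 of 34262310 UMIs in the coeliac and 72448675 of 85713115 in the lumbar. Each of the 5 classes was higher in the lumbar than in the coeliac, although their totals were alike. The HoxA level was thus close to nil at the head level and highest at the pelvic end, and the 2 pelvic libraries, made in different rounds, lay next to each other. The classes reached this end differently. In neurons the summed HoxA level was 0.518 CPM in the stellate, 1.00 in the coeliac, 12.3 in the lumbar, 103 in pelvic_1 and 122 in pelvic_2. The first 2 rest on 41 and 18 UMIs and moved to 0.288 and 0.562 CPM without doublets and, in the coeliac, to 3.23 CPM after thinning. In glia it was 15.7, 10.1, 47.0, 131 and 113 CPM in the same order, and in fibroblasts 41.3, 70.9, 97.0, 141 and 161 CPM. Endothelial cells ran from 59.1 CPM in the stellate to 185 in the lumbar and 194 and 196 in the pelvic libraries, and mural cells from 64.6 in the stellate to 267 in the lumbar and 187 and 210 in the pelvic libraries. Neurons therefore had the lowest HoxA level of these 5 classes in each of the 3 sympathetic libraries and in pelvic_1, whereas in pelvic_2 they lay above glia.

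**Figure D1:**
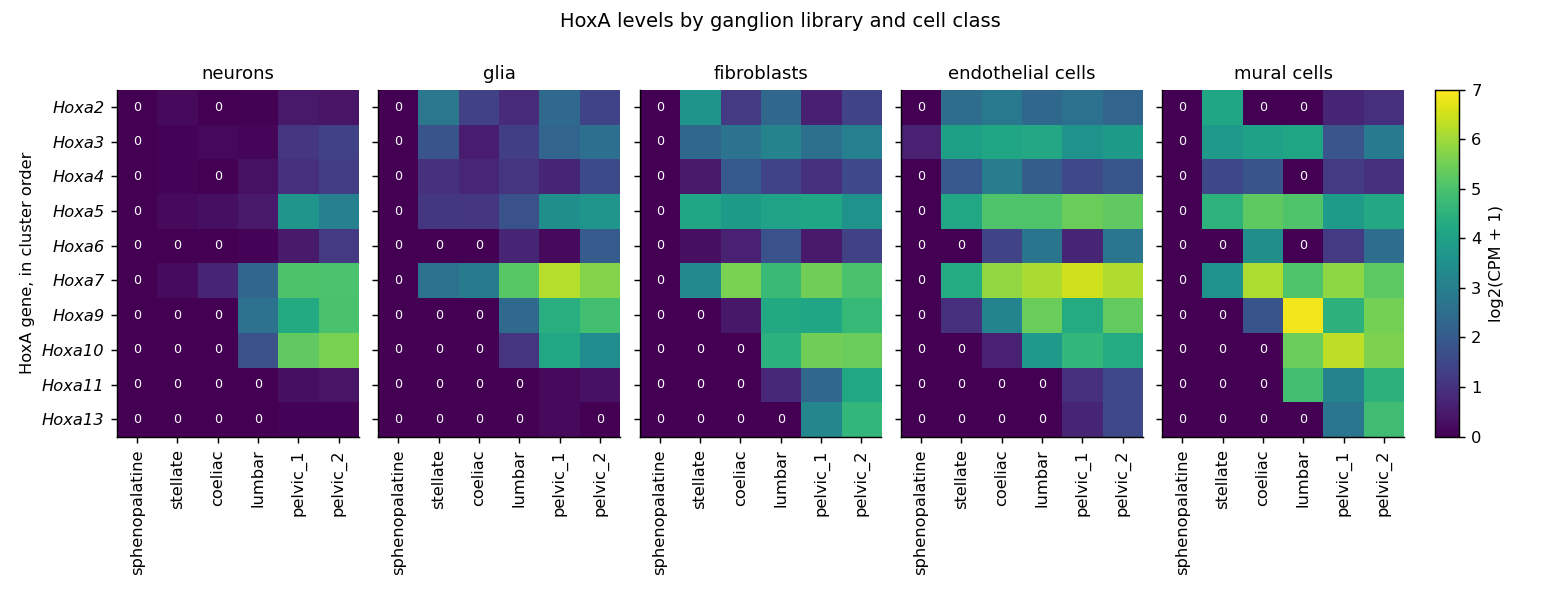
Heat maps of log2(CPM + 1) of each HoxA gene (rows, in cluster order) in each library (columns, from head to pelvis) for 5 cell classes, with 0 written where no UMI was counted. The filled area steps down from left to right in each class, and *Hoxa9* and *Hoxa10* hold no UMI in stellate and coeliac neurons and glia but 5.13 and 2.35 CPM in lumbar neurons.

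The hindmost gene counted more than 3 times lay further back in the cluster in the hinder ganglia, with exceptions. In the stellate it was *Hoxa7* in all 5 classes. In the coeliac it was *Hoxa7* in 4 classes and *Hoxa9*, with 14 UMIs, in endothelial cells. In the lumbar chain it was *Hoxa10* in 4 classes and *Hoxa11*, with 7 UMIs, in mural cells. In the pelvic libraries it was *Hoxa11* in neurons, *Hoxa10* in glia, as in lumbar glia, and *Hoxa13* in fibroblasts and mural cells. In endothelial cells it was *Hoxa10* in pelvic_1 and *Hoxa13*, with 5 UMIs, in pelvic_2. In pelvic neurons *Hoxa11* rested on 8 and 11 UMIs, at most 0.297 CPM, so that the bulk of the neuronal HoxA level stopped at *Hoxa10*.

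RNA set free from broken cells enters all droplets, and macrophages of the same libraries served as a class in which HoxA RNA is not expected. They held 0 HoxA UMIs in the sphenopalatine, coeliac and lumbar libraries, 5 in the stellate, 13 (13.7 CPM) in pelvic_1 and 1 (1.07 CPM) in pelvic_2. HoxA UMIs were found in 1.36% of stellate neurons and in 2.07% of stellate macrophages (median depths 26659 and 6048 UMIs). The share in stellate neurons was thus no higher than in these macrophages, whose share rests on 5 UMIs. The source of the HoxA counts in either class was not tested. Coeliac neurons had a HoxA UMI in 2.53% of cells, against 0 of 26 macrophages, of which 3 cells would be 11.5%. In the lumbar library 40.9% of neurons (median 70337 UMIs) had a HoxA UMI against 0 of 42 macrophages (median 13254.5). Of these macrophages 3 cells would be 7.14%. The passage of neuronal RNA into other droplets was read from 6 neuron-only genes. Per 1000 UMIs of these genes there were 12.4 HoxA UMIs in pelvic_1 neurons, 214 in pelvic_1 glia and 459 in pelvic_1 fibroblasts, and 1.48, 180 and 766 in the same classes of the lumbar library. Macrophages, the background class, had 36.4 in pelvic_1, also above the neurons, and 0 in the lumbar library. The ratios of glia and fibroblasts stood above those of both neurons and macrophages in these 2 libraries. Free RNA from fibroblasts or vessels would raise the ratio as well, and its part in the glial counts was not tested.

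The sphenopalatine ganglion, at the level of the head, held no UMI of any of the 10 genes in 1887 neurons and 75469876 UMIs, which allows at most 0.0398 CPM for each gene. Its glia, fibroblasts and mural cells also held none. The single HoxA UMI of the library was 1 of *Hoxa3* among 127 endothelial cells. The same neurons held 9.34 CPM of HoxB genes, nearly all of it *Hoxb2*.

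*Hoxa2* (ENSMUSG00000014704, chr6:52162417-52164831), which patterns the hindbrain and the second pharyngeal arch, is the frontmost member. In neurons it stayed low, at 0.126 CPM in the stellate, 0.0276 in the lumbar, 0.388 in pelvic_1 and 0.297 in pelvic_2, with no UMI in the coeliac. It was instead found in stellate fibroblasts at 11.3 CPM (8.49 to 14.8) against 0.545 (0.148 to 1.39) in pelvic_1 fibroblasts of the same round. These intervals do not overlap. In round 2 the fibroblasts held 1.30 CPM in the coeliac, 4.03 in the lumbar and 1.72 in pelvic_2, so the higher level at the front was seen in round 1 only. In glia the stellate (5.89 CPM) and pelvic_1 (4.29) of round 1 lay above the coeliac (1.61), lumbar (0.794) and pelvic_2 (1.68) of round 2, so that position and round cannot be told apart there. In endothelial cells it ranged only between 3.83 and 6.16 CPM over the 5 libraries, and all intervals overlapped.

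*Hoxa3* (ENSMUSG00000079560, chr6:52169062-52213336), needed for the thymus and parathyroid, had its highest level in endothelial cells from the stellate to the pelvis. In neurons it was between 0.0505 and 0.111 CPM in the 3 sympathetic libraries and 1.16 and 1.62 in the pelvic libraries. In glia it was 2.55 CPM in the stellate, 0.459 in the coeliac, 1.46 in the lumbar, 3.90 in pelvic_1 and 4.89 in pelvic_2. Endothelial cells held 14.8, 16.8, 17.6, 11.2 and 13.0 CPM in the same order, a level that did not change beyond the counting intervals from the stellate to the pelvis. Fibroblasts held between 4.06 and 7.83 CPM, also with overlapping intervals. Their ratio to glia was 11.7 in the coeliac and 5.38 in the lumbar. It was only 1.59 (0.833 to 2.99) in the stellate, 1.29 (0.776 to 2.16) in pelvic_1 and 1.46 (0.967 to 2.25) in pelvic_2. *Hoxa4* (ENSMUSG00000000942, chr6:52189671-52191753), a member of the same front group, was low, with 0 to 1.41 CPM in neurons, 0.650 to 1.96 in glia and 0.428 to 2.97 in fibroblasts, and reached 6.72 CPM in coeliac endothelial cells.

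*Hoxa5* (ENSMUSG00000038253, chr6:52201754-52204587), known for its part in lung and neck development, differed between classes in where along the axis it appeared. In fibroblasts it was already present at the stellate level, with 16.5 CPM in the stellate, 13.0 in the coeliac, 15.4 in the lumbar, 16.6 in pelvic_1 and 10.8 in pelvic_2. In neurons the same libraries held 0.139, 0.222, 0.386, 11.5 and 7.27 CPM. The 3 sympathetic values had overlapping intervals between neighbours, and both pelvic values lay above all of them, by 29.6 times over the lumbar in pelvic_1 and 18.8 times in pelvic_2. In pelvic neurons the mean was 9.36 CPM ± 2.96 (SD, n = 2 libraries), and 33.6% and 37.2% of the cells had a UMI. Glia followed the neurons, at 1.18, 1.15 and 2.38 CPM in the stellate, coeliac and lumbar and 10.3 and 11.5 in the pelvic libraries. Endothelial cells held the gene throughout, from 17.1 CPM in the stellate to 42.4 and 38.3 in the pelvis.

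*Hoxa6* (ENSMUSG00000043219, chr6:52206288-52208722) was a minor member in neurons and glia. It gave 0.416 CPM in pelvic_1 neurons and 1.30 in pelvic_2 neurons, and 0.130 and 3.07 CPM in the glia of the same libraries. The 2 pelvic libraries differed beyond their intervals in both classes, and the round and the preparation cannot be told apart.

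*Hoxa7* (ENSMUSG00000038236, chr6:52214491-52221854), a gene of the thoracic skeleton, was the member found most widely. Neurons held 0.152 CPM in the stellate, 0.667 in the coeliac, 3.99 in the lumbar, 32.1 in pelvic_1 and 31.6 in pelvic_2, a rise at each step from coeliac to pelvis whose intervals do not overlap. The 2 pelvic libraries agreed closely, with a mean of 31.8 CPM ± 0.313 (SD, n = 2) and a UMI in 66.4% and 77.2% of neurons. In the stellate the share of neurons with a UMI, 0.405%, was no higher than the 0.413% of macrophages, which rests on 1 UMI. In glia *Hoxa7* was the leading member from the coeliac backwards, at 6.20 CPM in the coeliac, 35.3 in the lumbar, 73.4 in pelvic_1 and 51.4 in pelvic_2, after 5.11 in the stellate. Fibroblasts reached their full level in the coeliac, at 47.3 CPM against 8.77 in the stellate, 25.9 in the lumbar and 44.0 and 30.8 in the pelvic libraries. Endothelial cells ran from 18.9 CPM in the stellate to 88.9 in pelvic_1 and 70.8 in pelvic_2.

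*Hoxa9* (ENSMUSG00000038227, chr6:52223100-52231089), best known from blood cell development and leukaemia, began at the lumbar level in most classes. In neurons there was no UMI in the stellate or the coeliac, then 5.13 CPM in the lumbar, 18.3 in pelvic_1 and 30.9 in pelvic_2 (mean of the pelvic libraries 24.6 ± 8.90, SD, n = 2). The lumbar value lay below both pelvic ones with intervals apart, and the pelvic libraries also differed from each other beyond their intervals. In glia the order was the same, with 4.23 CPM in the lumbar and 20.4 and 28.4 in the pelvis. In fibroblasts it was not, since the lumbar level of 18.0 CPM lay beside 16.6 and 24.9 in the pelvic libraries. Lumbar mural cells held 115 CPM (76.4 to 166), from 28 UMIs in 27 cells, against 21.8 (15.1 to 30.5) and 45.05 (33.2 to 59.7) in pelvic mural cells.

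*Hoxa10* (ENSMUSG00000000938, chr6:52231197-52240854), known for its roles in the uterus and the male reproductive tract, was the leading member in pelvic neurons. They held 38.3 CPM in pelvic_1 and 47.4 in pelvic_2 (mean 42.9 ± 6.45, SD, n = 2), with a UMI in 62.8% and 71.2% of cells. Lumbar neurons held 2.35 CPM (2.01 to 2.73), 16.3 and 20.2 times below the pelvic libraries, and the stellate and coeliac held none. In glia the pelvic levels were lower than in neurons, at 17.3 and 9.64 CPM, with 1.06 CPM in the lumbar. In fibroblasts lumbar cells had already 21.1 CPM against 43.8 and 41.3 in the pelvis, and pelvic mural cells held 77.6 and 47.9 CPM, above the neurons in pelvic_1 and level with them in pelvic_2.

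The 4 genes *Hoxa5*, *Hoxa7*, *Hoxa9* and *Hoxa10* make up most of the HoxA RNA of pelvic neurons, and their promoter windows are shown because these members were high together there. Windows from 250 bases before to 50 bases after the RefSeq start (GRCm38.p6) were matched by symbol for 9 of the 10 members, all but *Hoxa4*, and *Hoxa10* had 2 windows. The RefSeq starts of *Hoxa7* and *Hoxa9* lie inside the GENCODE spans given above. Capitals mark matches, on either strand, to TTTATG (a Cdx-type word), TGATTNAT (a Pbx-Hox-type word), AGGTCA (the core word of retinoic acid receptor sites) or TATAAA (the TATA box), with no overlap between marked words.

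Hoxa5, chr6:52204538-52204837, minus strand: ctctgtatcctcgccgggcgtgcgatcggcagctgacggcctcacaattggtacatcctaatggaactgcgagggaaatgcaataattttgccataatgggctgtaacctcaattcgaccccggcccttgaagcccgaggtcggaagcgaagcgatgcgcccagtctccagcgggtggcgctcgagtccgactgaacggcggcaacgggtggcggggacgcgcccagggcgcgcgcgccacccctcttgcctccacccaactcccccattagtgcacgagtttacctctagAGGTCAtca

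Hoxa7, chr6:52218524-52218823, minus strand: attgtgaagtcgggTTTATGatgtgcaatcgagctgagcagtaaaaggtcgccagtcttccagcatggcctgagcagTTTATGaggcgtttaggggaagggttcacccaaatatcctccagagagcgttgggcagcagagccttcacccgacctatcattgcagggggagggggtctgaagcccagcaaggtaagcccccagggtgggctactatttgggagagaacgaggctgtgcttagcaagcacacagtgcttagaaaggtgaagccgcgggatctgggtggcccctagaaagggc

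Hoxa9, chr6:52227321-52227620, minus strand: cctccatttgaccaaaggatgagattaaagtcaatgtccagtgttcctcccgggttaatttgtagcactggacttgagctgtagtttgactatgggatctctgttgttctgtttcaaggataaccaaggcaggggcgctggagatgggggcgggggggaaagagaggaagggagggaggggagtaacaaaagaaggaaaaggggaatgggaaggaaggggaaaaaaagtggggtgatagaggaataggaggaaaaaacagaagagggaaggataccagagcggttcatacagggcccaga

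Hoxa10, outer start, chr6:52240805-52241104, minus strand: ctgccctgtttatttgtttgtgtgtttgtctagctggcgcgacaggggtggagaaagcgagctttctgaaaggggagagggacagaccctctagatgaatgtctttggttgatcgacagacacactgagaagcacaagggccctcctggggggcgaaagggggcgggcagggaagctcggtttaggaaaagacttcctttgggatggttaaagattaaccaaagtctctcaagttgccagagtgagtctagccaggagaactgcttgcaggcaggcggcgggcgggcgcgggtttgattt

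Hoxa10, inner start, chr6:52234890-52235189, minus strand: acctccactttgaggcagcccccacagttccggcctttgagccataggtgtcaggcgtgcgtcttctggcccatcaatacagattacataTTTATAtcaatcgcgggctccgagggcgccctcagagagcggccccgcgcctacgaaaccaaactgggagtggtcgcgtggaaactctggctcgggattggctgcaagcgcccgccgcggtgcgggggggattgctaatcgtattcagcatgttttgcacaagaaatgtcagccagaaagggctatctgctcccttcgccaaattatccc

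TTTATG stood at 2 places in the *Hoxa7* window and in no other window of a member. AGGTCA stood in the *Hoxa5* window, TATAAA, read on the opposite strand, in the inner window of *Hoxa10*, and TGATTNAT only in the window of *Hoxa2*, which is not shown. Each word was thus held by 1 of 10 HoxA windows, against 11.9% of all 32851 windows for TTTATG, 3.22% for TGATTNAT, 16.3% for AGGTCA and 13.6% for TATAAA. These matches describe the letters of short windows and no binding was measured.

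*Hoxa11* (ENSMUSG00000038210, chr6:52242106-52245810) and *Hoxa13* (ENSMUSG00000038203, chr6:52257694-52260880) shape the limb and the genital tract. In the pelvis both were found mainly in fibroblasts and mural cells. *Hoxa13* was at 8.44 CPM (6.47 to 10.8) in pelvic_1 fibroblasts and 23.9 (21.1 to 27.1) in pelvic_2 fibroblasts, and at 5.77 and 28.2 CPM in mural cells. *Hoxa11* was at 4.09 and 17.3 CPM in fibroblasts and 7.70 and 21.6 in mural cells of the same libraries. Both genes were higher in pelvic_2 than in pelvic_1 in fibroblasts, with intervals apart, and round and dissection cannot be told apart. In pelvic neurons *Hoxa13* gave 2 UMIs in each library, 0.0555 and 0.0540 CPM, and in pelvic glia 1 UMI in all. Outside the pelvis *Hoxa13* gave no UMI in any class, and *Hoxa11* gave 3 UMIs in lumbar fibroblasts (0.712 CPM) and 7 in lumbar mural cells. The latter, 28.7 CPM (11.6 to 59.2), was no lower than the level in pelvic mural cells.

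**Figure D2:**
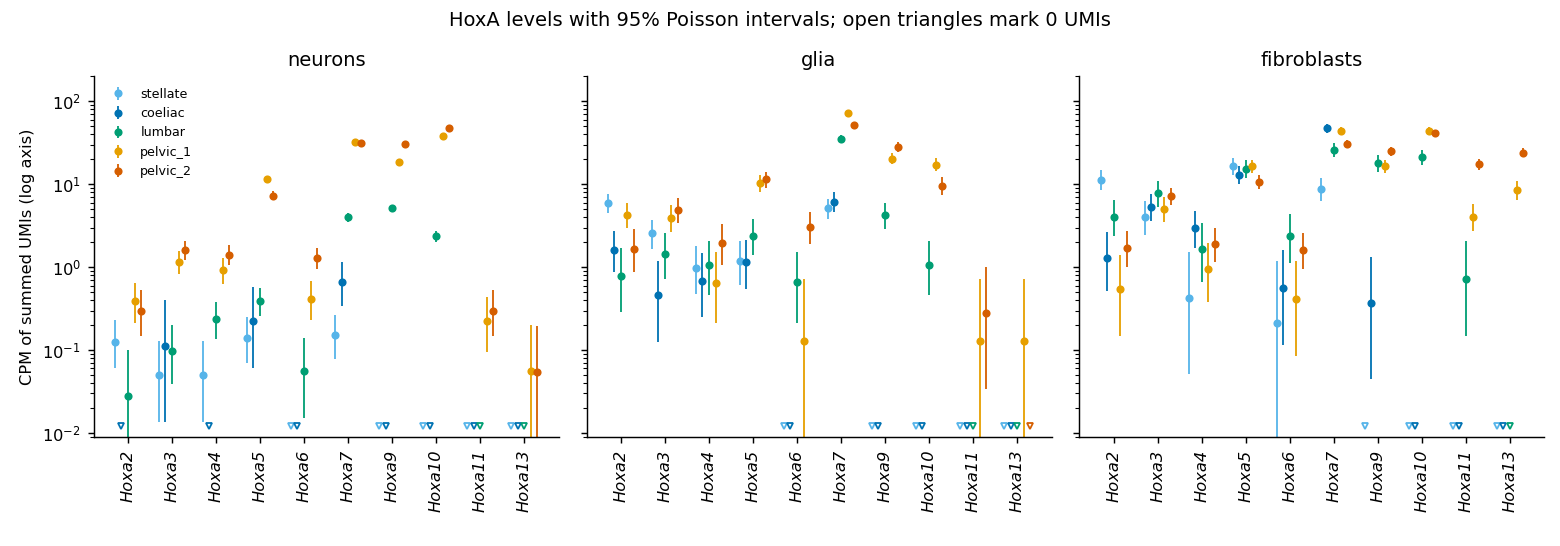
CPM of summed UMIs (log axis, lower ends of some bars cut by the axis) of each HoxA gene in neurons, glia and fibroblasts of 5 libraries, with 95% Poisson intervals as bars and open triangles for 0 UMIs. In neurons the 2 pelvic libraries lie above the sympathetic ones for *Hoxa5*, *Hoxa7*, *Hoxa9* and *Hoxa10*, whereas fibroblasts of all 5 libraries lie between 10.8 and 16.6 CPM for *Hoxa5*.

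To ask whether the pelvic ganglion stood apart from the sympathetic ganglia, genes were counted whose CPM was at least 2 times higher in both pelvic libraries than in each of the stellate, coeliac and lumbar libraries, among genes with a mean of at least 1 CPM. In neurons 4 of the 4 members that passed this minimum were counted (*Hoxa5*, *Hoxa7*, *Hoxa9* and *Hoxa10*), against 3.99% of 13134 genes. The members counted here, and those counted below in glia and fibroblasts, reached the minimum mainly through their pelvic levels, so these counts are descriptions and nothing is read from them against the share of all genes. The pelvic level of *Hoxa7* was 8.04 and 7.92 times that of the lumbar, and that of *Hoxa9* 3.57 and 6.02 times. No UMI of *Hoxa9* or *Hoxa10* was counted in stellate neurons. With 3 UMIs set in place of 0 there, pelvic_1 was 484-fold higher for *Hoxa9* and 1011-fold higher for *Hoxa10*. In glia 3 of 6 members were counted (*Hoxa5*, *Hoxa9* and *Hoxa10*), against 0.483% of 13238 genes. *Hoxa7* was not, being 2.08 times the lumbar level in pelvic_1 but 1.46 times in pelvic_2. In fibroblasts 2 of 9 members were counted (*Hoxa11* and *Hoxa13*), against 1.45% of 13324 genes, and *Hoxa5* was 1.08 and 0.70 times its lumbar level. With pairs of the same round only, the counts were again 4, 3 and 2 (5.16%, 0.884% and 2.21% over all genes). After thinning the count in fibroblasts was also 2 (1.88% over all genes), but of *Hoxa10* and *Hoxa13*, with *Hoxa11* no longer counted. In fibroblasts leaving out the lumbar library raised the count to 4 by adding *Hoxa9* and *Hoxa10* (1.76% over all genes).

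Within a library the classes share dissociation, droplets and sequencing, so classes could be tested with the library as a block (edgeR's quasi-likelihood test on summed UMIs, Benjamini-Hochberg adjusted over all genes tested, n = 6 libraries). Neurons differed from glia in both directions. *Hoxa10* was higher in neurons by 1.69 on the log2 scale (SE 0.34, adjusted p = 0.0062 by edgeR), in 3 of the 3 libraries that held it. Within libraries the ratio of neurons to glia was 2.22 in the lumbar, 2.22 in pelvic_1 and 4.92 in pelvic_2. *Hoxa3* was lower in neurons by a log2 fold change of -2.67 (SE 0.64, adjusted p = 0.0065 by edgeR) and *Hoxa7* by -2.30 (SE 0.61, adjusted p = 0.011 by edgeR), each in 5 of 5 libraries. For *Hoxa7* the level in glia was 33.7 times that in neurons in the stellate, 9.29 times in the coeliac, 8.86 in the lumbar, 2.29 in pelvic_1 and 1.63 in pelvic_2. *Hoxa5* had a log2 fold change of -1.31 (SE 0.52, adjusted p = 0.052 by edgeR) and *Hoxa9* of 0.19 (SE 0.21, adjusted p = 0.45). Thus 1 of 5 tested members was higher, against 37.6% of 13847 genes, and 2 were lower, against 36.9%, while *Hoxa2*, *Hoxa4*, *Hoxa6*, *Hoxa11* and *Hoxa13* did not pass the filter on low counts. Under DESeq2 the log2 fold change of *Hoxa10* was 0.28 with an adjusted p of 0.85. Without pelvic_2 only *Hoxa7* was past the threshold (-2.92, adjusted p = 0.0060 by edgeR), since *Hoxa3* and *Hoxa10* then fell below the filter on low counts and were not tested.

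Over the 6 libraries together *Hoxa5* was higher than in glia in endothelial cells, fibroblasts and mural cells, and *Hoxa3* in the first 2 of these classes. For *Hoxa5* the fibroblast to glia ratio was 14.0 in the stellate, 11.3 in the coeliac and 6.47 in the lumbar. It was only 1.62 (1.21 to 2.17) in pelvic_1 and 0.94 (0.70 to 1.27) in pelvic_2. The mural ratios were 18.8, 32.7 and 13.8, then 1.31 (0.77 to 2.14) and 1.56 (0.89 to 2.59). In endothelial cells the pelvic ratios were 4.12 and 3.34. In endothelial cells *Hoxa5* was higher by 3.00 on the log2 scale (SE 0.40, adjusted p = 8.8e-05 by edgeR), *Hoxa3* by 2.67 (SE 0.44, adjusted p = 0.00028) and *Hoxa7* by 1.27 (SE 0.36, adjusted p = 0.011). These were 3 of 5 tested members, against 31.6% of 12437 genes. The log2 fold changes of *Hoxa2* (0.91, adjusted p = 0.067 by edgeR) and *Hoxa9* (1.46, adjusted p = 0.066) did not pass. In fibroblasts *Hoxa5* was higher by 1.94 (SE 0.57, adjusted p = 0.017 by edgeR) and *Hoxa3* by 1.41 (SE 0.44, adjusted p = 0.022), 2 of 5 tested members against 30.9% of 12863 genes. *Hoxa2*, *Hoxa7* and *Hoxa9* differed from glia by 0.32, 0.34 and 0.58, with adjusted p-values (edgeR) of 0.65, 0.59 and 0.31. In mural cells *Hoxa5* was higher by 2.46 (SE 0.66, adjusted p = 0.011 by edgeR), 1 of 4 tested members against 18.6% of 11969 genes, while *Hoxa3*, *Hoxa7* and *Hoxa9* had log2 fold changes of 1.80, 0.52 and 1.68 with adjusted p-values (edgeR) of 0.059, 0.44 and 0.079. Leaving out 1 library raised the number past the threshold to 5 in endothelial cells (without the sphenopalatine or the stellate). In mural cells it rose to 3 (without pelvic_1) or 2 (without any other but the lumbar). Over all genes, in either direction, 7758 of 12493 and 7760 of 12482 passed in these endothelial settings. In mural cells 4047 of 11981 genes passed without pelvic_1, and between 4060 and 4540 where 2 members passed. Without the lumbar library no member passed in fibroblasts, where *Hoxa5* and *Hoxa3* then had adjusted p-values (edgeR) of 0.058 and 0.069.

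**Figure D3:**
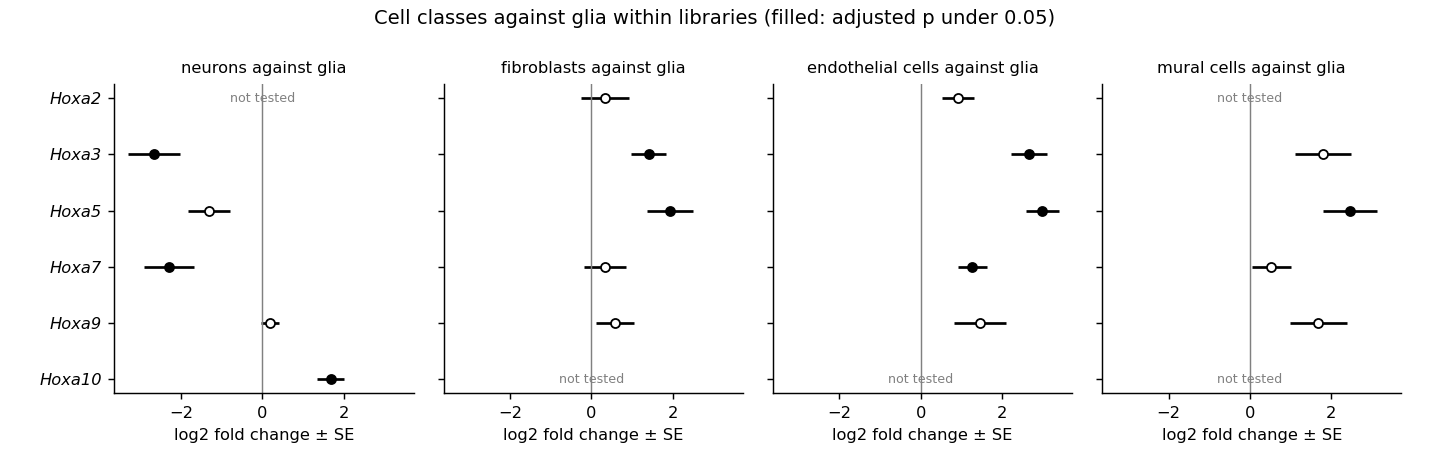
Log2 fold change ± SE of each tested HoxA gene in neurons, fibroblasts, endothelial cells and mural cells against glia of the same libraries (edgeR, n = 6 libraries), with filled points for an adjusted p under 0.05. In neurons *Hoxa10* lies to the right of 0 and *Hoxa3* and *Hoxa7* to the left, whereas in the other 3 classes all plotted points lie to the right.

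Because the gap between neurons and glia looked narrower in the pelvis, the difference between the 2 pelvic and the 3 sympathetic libraries in the neuron to glia contrast was fitted as well, a test added after these values were seen. None of 8 tested members passed the adjusted threshold in edgeR, against 175 of 15317 genes (1.14%). The estimates were 2.46 for *Hoxa5* (SE 0.44, adjusted p = 0.059 by edgeR) and 2.70 for *Hoxa7* (SE 0.54, adjusted p = 0.079). They were 2.44, 2.67, 3.19 and 2.72 for *Hoxa2*, *Hoxa3*, *Hoxa4* and *Hoxa6*, but -0.34 for *Hoxa9* and 0.52 for *Hoxa10*. At an unadjusted p under 0.05 there were 5 members and 1757 genes.

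Pelvic neurons were not alike in their HoxA levels. They were clustered without *Hox* genes and named after markers of the pelvic clusters P1 to P4. The P1-like cluster held 321 and 158 cells in pelvic_1 and pelvic_2, the P2-like 264 and 91, the P3-like 130 and 33 and the P4-like 48 and 32, and 113 and 54 neurons stayed unnamed. The P3-like cells were noradrenergic, with *Th* at 501 and 515 CPM, and the other 3 held at most 2.60 CPM of it and instead *Slc5a7*, the choline transporter, at 317 to 521 CPM. Since the clusters were drawn from these same cells, their values are a description with no test.

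The P4-like cluster had the highest level of each of the 4 main members in both libraries, though for *Hoxa7* in pelvic_1 its interval overlapped that of the P1-like cluster. *Hoxa10* was at 133 and 181 CPM there, against 53.0 and 56.02 in the P2-like, 24.0 and 28.2 in the P1-like and 8.91 and 5.56 in the P3-like cluster. The order of the 4 clusters was the same in both libraries, with intervals apart at each step, and 100% of P4-like cells had a *Hoxa10* UMI in each library. *Hoxa9* followed the same order at its upper end, with 71.6 and 141 CPM in the P4-like and 26.8 and 40.8 in the P2-like cluster, while P1-like (8.20 and 13.6) and P3-like cells (7.36 and 9.004) lay close together, with overlapping intervals. *Hoxa5* was at 41.3 and 33.0 CPM in P4-like cells and between 2.65 and 13.2 in the other 3 clusters. *Hoxa7* was the most even, between 21.2 and 53.7 CPM over all 4 clusters. The noradrenergic P3-like cells therefore kept *Hoxa7* at 25.2 and 21.2 CPM while holding little *Hoxa10*, but even this level of *Hoxa10* exceeded the 2.35 CPM of lumbar neurons. After thinning every cell to 4000 UMIs the shares of cells with a *Hoxa10* UMI were 46.5% ± 2.62 (SD, n = 2) in the P4-like, 20.3% ± 2.50 in the P2-like, 8.16% ± 1.84 in the P1-like and 4.59% ± 2.21 in the P3-like cluster.

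**Figure D4:**
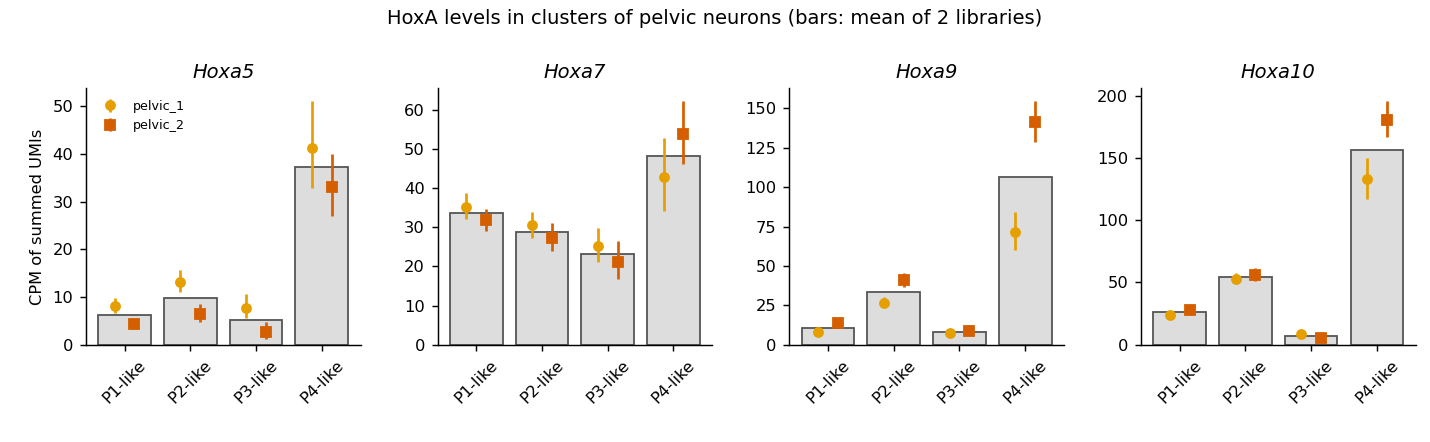
CPM of *Hoxa5*, *Hoxa7*, *Hoxa9* and *Hoxa10* in the P1-like to P4-like clusters of pelvic neurons, with circles for pelvic_1, squares for pelvic_2, 95% Poisson intervals and grey bars for the mean of the 2 libraries. The P4-like cluster is highest for each gene, and *Hoxa10* falls to 8.91 and 5.56 CPM in the P3-like cluster while *Hoxa7* stays above 20 CPM in all 4.

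Single pelvic neurons carried several members at once. A HoxA UMI was found in 91.3% of pelvic_1 and 87.8% of pelvic_2 neurons, and 4 or more members in 15.8% and 39.7%, at median depths of 39468.5 and 108441.5 UMIs. At 4000 UMIs per neuron the shares with any member were 31.4% and 36.8%, against 5.74% in the lumbar, 1.29% in the coeliac and 0.148% in the stellate. In glia thinned to 2000 UMIs they were 23.7% and 21.3% in the pelvis, 9.57% in the lumbar, 1.88% in the coeliac and 2.97% in the stellate. Macrophages of pelvic_1, the background, had a HoxA UMI in 11.1% of cells before and 4.27% after thinning. A level summed over a class does not by itself tell fewer cells with a transcript from less transcript per cell.

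Set beside the other 3 *Hox* clusters, HoxA was a small part of the *Hox* RNA of sympathetic neurons. Its share was larger in fibroblasts of the sympathetic and pelvic libraries, but it was their leading cluster in the pelvic libraries only. Of all *Hox* UMIs, HoxA made up 0.302% in stellate, 0.303% in coeliac and 4.43% in lumbar neurons, then 18.1% and 19.7% in pelvic neurons. HoxC genes held 90.4%, 94.1% and 87.9% in the sympathetic neurons and 55.8% and 56.7% in the pelvic ones. In fibroblasts HoxA made up 18.7% to 21.7% in the sympathetic libraries and 45.3% and 44.9% in the pelvic ones, where HoxC fell to 10.1% and 7.26%. Among paralogues, the genes of the same number in other clusters, *Hoxc10* was at 35.0 CPM in lumbar and at 166 and 172 CPM in pelvic neurons beside 2.35, 38.3 and 47.4 for *Hoxa10*. *Hoxd10* was at 30.1 and 29.0 CPM in pelvic neurons and gave none in the lumbar. In fibroblasts the pair was inverted, with *Hoxc10* at 61.0 CPM in the lumbar and 9.67 and 6.39 in the pelvis beside 21.1, 43.8 and 41.3 for *Hoxa10*. *Hoxb7* resembled *Hoxa7* in being low in sympathetic neurons (0.21 to 0.53 CPM) and higher in their glia (27.4 to 47.4 CPM), but unlike *Hoxa7* its glial level was not higher in the pelvis (41.5 and 24.2 CPM).

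**Figure D5:**
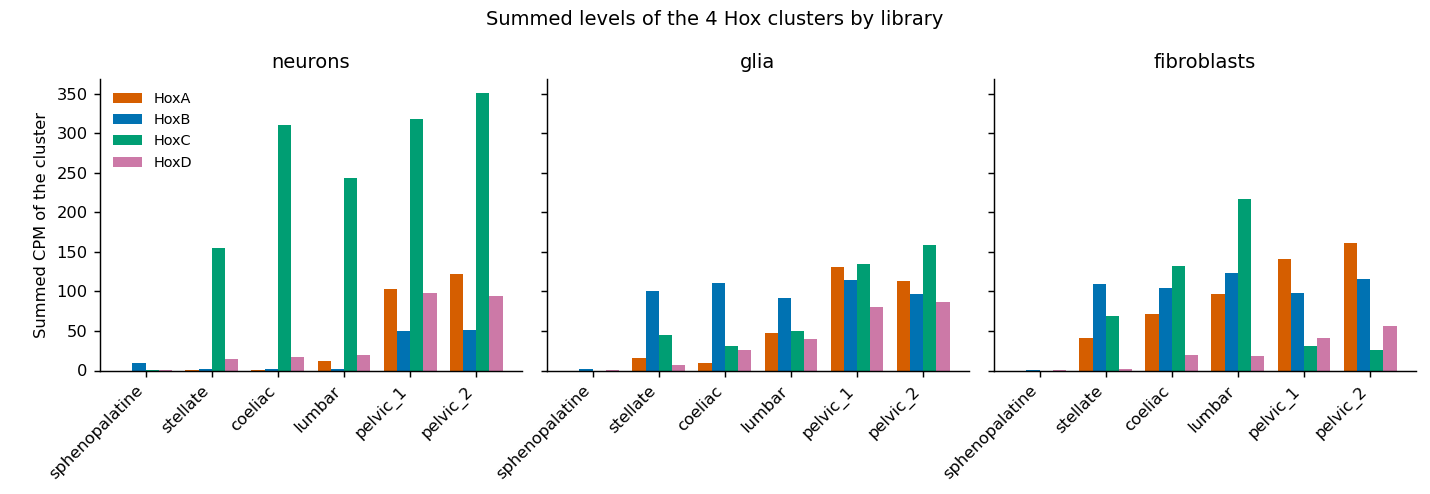
Summed CPM of the HoxA, HoxB, HoxC and HoxD genes in neurons, glia and fibroblasts of the 6 libraries (bars start at 0). HoxC leads in sympathetic and pelvic neurons (155 to 351 CPM), whereas HoxA leads in pelvic fibroblasts (141 and 161 CPM).

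Among the DNA-binding partners of Hox proteins, pelvic neurons held *Meis2* at 0.72 and 0.78 CPM and *Meis1* at 98.8 and 87.9 CPM. Of 9 partner genes, 3 were higher and 1 lower in neurons than in glia by the same edgeR test (37.6% and 36.9% over all genes). The median log2 fold change was -0.08 against 0.01 over all genes tested. *Meis1* was higher by 3.35 (SE 0.20, adjusted p = 2.5e-06 by edgeR), *Meis3* by 1.66 (adjusted p = 1.1e-05) and *Pbx4* by 0.97 (adjusted p = 0.00058), while *Pknox2* had a log2 fold change of -1.73 (adjusted p = 0.00041). *Meis2* was instead a stromal gene, higher than in glia by 6.77 in fibroblasts, 5.42 in endothelial cells and 6.24 in mural cells. Against glia, 5 of 9 partners were higher and 2 lower in fibroblasts, 4 and 4 in endothelial cells and 4 and 1 in mural cells. Over all genes tested, the lower calls were 32.7% in fibroblasts, 33.6% in endothelial cells and 21.1% in mural cells, beside 30.9%, 31.6% and 18.6% for the higher calls. In the pelvic against sympathetic count for neurons 1 of 8 partners was found (3.99% over all genes), *Pbx3*, at 38.6 and 33.8 CPM in pelvic neurons against 4.69 to 6.67 in the 3 sympathetic libraries. In glia 0 of 8 were counted.

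Of 8 other genes in or beside the cluster, 3 passed the filter for neurons against glia and 2 were lower (36.9% over all genes). *Hotairm1*, a long non-coding RNA at the front end of the cluster, had a log2 fold change of -3.44 (SE 0.97, adjusted p = 0.011 by edgeR) and *Hoxaas3*, which lies antisense to *Hoxa3* and *Hoxa7*, of -2.72 (SE 0.86, adjusted p = 0.022). The third, *Skap2*, the next protein-coding gene beyond the front end, had 0.62 (adjusted p = 0.084 by edgeR). *Hotairm1* was higher than in glia by 1.86 in endothelial cells, 1.00 in fibroblasts and 1.76 in mural cells. In these classes 3 of 3, 2 of 3 and 2 of 2 tested genes of this list were higher (31.6%, 30.9% and 18.6% over all genes). In pelvic neurons *Hotairm1* (3.91 and 3.57 CPM) and *Skap2* (15.1 and 18.9 CPM) were at least 2 times above each sympathetic library, both of the 2 that passed the minimum (3.99% over all genes), *Hotairm1* only through its pelvic level, and none of 3 was in glia. *Hoxaas3* was at 1.16 and 1.11 CPM in pelvic neurons beside 32.1 and 31.6 for *Hoxa7*, and *Hoxa11os* at 0.31 and 0.22. *Hottip*, beyond *Hoxa13*, gave no UMI in neurons or glia.

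Among 12 known regulators of *Hox* clusters, 9 passed the filter for neurons against glia, none was higher and 7 were lower (37.6% and 36.9% over all genes), with a median log2 fold change of -1.71. They included the Polycomb genes *Ezh2* (-3.81, SE 0.19, adjusted p = 1.2e-06 by edgeR), *Eed* (-1.71) and *Bmi1* (-0.73) and the retinoic acid receptors *Rara* (-2.55), *Rarb* (-2.14) and *Rarg* (-3.27). *Ezh2* was at 3.498 to 12.6 CPM in neurons and 57.5 to 132 CPM in glia. The activator *Kmt2a* (0.03, adjusted p = 0.88 by edgeR) and *Suz12* (-0.11, adjusted p = 0.64) did not pass. In fibroblasts 1 was higher and 6 lower than in glia (30.9% and 32.7% over all genes). In endothelial cells these counts were 5 and 2 (31.6% and 33.6%) and in mural cells 0 and 3 (18.6% and 21.1%). *Rarb* alone of 9 was counted as higher in pelvic neurons (3.99% over all genes), at 10.8 and 14.8 CPM against 3.13 to 4.56 in the sympathetic libraries. In glia 0 of 9 were counted (0.483% over all genes).

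Likeness of profile was measured by Pearson's correlation of log2(CPM + 1) over 12 summed profiles, the neurons and glia of the 6 libraries, among 11135 genes outside the *Hox* clusters with at least 10 CPM in a profile. These are points that share libraries and cell classes, and the correlations are descriptions. *Hoxa10* was most like *Wnt5a* (0.92), *Nccrp1* (0.91) and *Mucl1* (0.91). *Mucl1* was on the marker list for the P4-like cluster but headed an unnamed pelvic_1 cluster of 68 neurons. *Nccrp1* was among the leading genes of P2-like cells. Sums over all neurons of a library do not show which cluster a likeness comes from. *Hoxa9* was most like *Gm19938* (0.85), *Calca* (0.84) and *Wnt5a* (0.84). *Hoxa7* was nearest to *Dexi* (0.88), *Calml4* (0.83) and *Smim19* (0.83), and *Hoxa5* to *Acta2* (0.85), *Tspan12* (0.83) and *Gem* (0.83). Between members the correlation ran as high as 0.95, for *Hoxa9* with *Hoxa10*, and was 0.94 for *Hoxa5* with *Hoxa7*, 0.79 for *Hoxa7* with *Hoxa10* and 0.12 for *Hoxa2* with *Hoxa10*.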

How the data were processed

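Single cells of 6 ganglion preparations were sequenced with droplet reagents that capture the 3' ends of transcripts. The values used were the deposited counts, UMIs per gene and droplet, which the authors made with Cell Ranger 6.0.1 on mm10 (per the submitters' processing notes), restricted to droplets called as cells and without normalization. Libraries held 39353313 to 113352559 UMIs in 2111 to 11122 droplets.

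A droplet was kept if more than 1500 but fewer than 11000 genes were detected in it and mitochondrial UMIs stayed below 15%. Counts were normalized with sctransform 0.4.2 (Seurat 5.3.0, R 4.3.3). Neurons had a mean of neuronal markers above 3 and of glial markers below 1.15. The other cells were clustered per library on 2000 variable genes and 30 components (scanpy 1.11.5, Leiden resolution 1) and named from fixed marker lists. Doublets were kept in the main values, and Scrublet called 254 cells (1.26%) of the classes. Pelvic neurons were clustered within each library on 20 components at resolution 0.6, *Hox* genes left out. UMIs were summed per library and class for all libraries with at least 20 cells of it, and tested with edgeR 4.0.16 (TMM, filterByExpr, quasi-likelihood, library as block, threshold 0.05), which was tested on simulated data. In the simulated contrast of neurons against glia 54.3% of 2-fold and 100% of 4-fold changes were recovered. Each simulated gene had the same fold in every library, unlike HoxA genes such as *Hoxa7*. These rates therefore do not give the power of the test for the members. DESeq2 1.42.0 was an alternative. Shares of cells were also taken after thinning neurons to 4000 UMIs and other cells to 2000.

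All 10 HoxA genes are named, and other genes by fixed lists (partners, genes of the locus, regulators, paralogues) and by the 3 most like profiles. The driver of the transgene is not reported here. The members and the lists were chosen with earlier results of these data known. Nothing in the sources used here says whether the 2 pelvic libraries came from separate animals, and p-values measure the spread between libraries, some of it technical.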

Additional observations from a re-analysis of the deposited data

Results flagged for a closer look

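A HoxA signal was seen in cells that entered none of the comparisons, above the level in macrophages of the same libraries. In the pelvic ganglion, cells with markers of chromaffin cells (endocrine relatives of sympathetic neurons) had a summed HoxA level of 147 CPM in pelvic_1 (126 to 171, from 169 UMIs in 164 cells) and 160 CPM in pelvic_2 (130 to 194, from 103 UMIs in 33 cells), against 13.7 and 1.07 CPM in macrophages. In both libraries 7 of the 10 members were found in these cells.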

How the results depend on the processing

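Counting error and the single library per sympathetic ganglion set the main limits. Members under the filter on low counts were not tested against glia, and mural and endothelial sums of the coeliac and lumbar libraries rest on 27 to 47 cells. Ganglia could not be paired with each other, because the sources used here do not say which libraries share animals. Only replicate number 1 occurs in more than 1 ganglion. The class tests were paired within libraries, since they hold the library as a block.

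Of 217 values of 19 single-gene class results under the alternatives, 188 kept direction and side of the threshold, 19 also passed it, 5 no longer passed it and 5 changed sign, none of these 5 past the threshold. The cause was not tested. The sign changes were *Hoxa9* in neurons with glia taken by markers alone (-0.092), *Hoxa2* in fibroblasts without the stellate (-0.038) or lumbar library (-0.093, up to 0.94 when another library was left out), and *Hoxa7* without the coeliac library in fibroblasts (-0.25, up to 0.67) and mural cells (-0.15, up to 1.01).

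The number of members past the threshold moved as follows. In neurons, 3 by default, it ran from 1 (without pelvic_2, where *Hoxa3* and *Hoxa10* fell below the filter) to 4 when each library was left out. Over all genes, in either direction, 10311 of 13847 passed by default and 9933 of 13832 without pelvic_2. In fibroblasts, 2 by default, it was 5 with no filter and between 0 (without the lumbar) and 3 when each library was left out. Over all genes 8175 of 12863 passed by default, 9078 of 22391 with no filter and 7630 of 12870 without the lumbar. In endothelial cells, 3 by default, it was 5 with DESeq2 and 7 with no filter. It was between 3 and 5 when each library was left out (5 without the sphenopalatine or the stellate). Over all genes 8108 of 12437 passed by default, 7580 of 12437 with DESeq2 and 9319 of 21592 with no filter. In mural cells, 1 by default, it was 3 with DESeq2 and with all classes in 1 fit, and 6 with no filter. It was 2 with glia taken by markers alone, and between 1 and 3 when each library was left out. Over all genes 4758 of 11969 passed by default, 4332 of 11969 with DESeq2 and 5363 of 13911 with all classes in 1 fit. With no filter 5400 of 21136 genes passed, and with glia taken by markers alone 4875 of 12117. The number of all genes past the threshold stayed within 1.5 times in each setting.

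The number of members at least 2 times higher in the pelvis was 4 in neurons, 3 in glia and 2 in fibroblasts. With a mean of at least 10 CPM, which fewer members reach, it was 2 of 2, 0 of 1 and 0 of 3. The shares over all genes were then 2.31%, 0.204% and 0.624%. With no filter it was 10 of 10 in neurons (4.64% of 24161 genes), 4 of 10 in glia (1.28%) and 2 of 10 in fibroblasts (3.27%). In neurons *Hoxa13* then rested on 2 UMIs in each pelvic library. Leaving out the lumbar library, a setting chosen after seeing the data, gave 4 in fibroblasts. Leaving out 1 library at a time gave 4 in neurons, 3 to 4 in glia and 2 to 4 in fibroblasts. The shares over all genes were then 4.53% to 5.12% in neurons, 0.619% to 1.23% in glia and 1.76% to 2.85% in fibroblasts.

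The summed HoxA level of stellate neurons moved from 0.518 to 0.288 CPM without doublets and 0.371 after thinning, that of coeliac neurons from 1.00 to 0.562 and 3.23, and that of lumbar neurons from 12.3 to 16.03 after thinning. Each kept its place below the pelvic level. The difference between pelvic and sympathetic libraries in the neuron to glia contrast was fitted in 1 setting only.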
